A study of Mus musculus with 12 samples.

Results

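To examine the macrophage compartment of mammary tumours exposed to miRNA-loaded extracellular vesicles (EVs), the transcript levels of 9 genes that mark macrophages and their monocyte precursors were followed in 12 tumours. The genes were Spi1, Adgre1, Itgam, Cd68, Lyz2, Cx3cr1, Mertk, Trem2 and Ly6c2, chosen by name from 35944 annotated mouse genes, and each symbol matched 1 gene in the annotation. The choice of these genes, and of the related lists below, was made with earlier results of these data known. Counts of them set beside shares of all genes are therefore descriptions and not tests. Levels of the 9 genes were obtained by summing the values of all transcripts of a gene. The tumours were of 4T1, a mouse mammary carcinoma line, of which 100000 cells had been injected under the skin of female BALB/c mice aged 6 to 8 weeks, a strain with an intact immune system. EVs of endothelial cells, electroporated with a miRNA mimic, were given around the tumour from day 5 in doses of 3 µg at intervals of 2 days, and RNA was taken on day 21. The 4 groups held 3 tumours each and differed in the mimic, which was that of the nematode miRNA cel-miR-67 (ctrl) or that of miR-142-5p, else miR-183-5p or else miR-222-3p. All 4 groups received EVs, so that no group shows tumours without them, and the values describe RNA of whole tumours rather than of sorted macrophages.

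Macrophages of tumours derive largely from blood monocytes that enter the tissue, lose surface Ly6C and gain macrophage receptors. Their identity depends on PU.1, the transcription factor encoded by Spi1, and on signalling through the CSF1 receptor. Mature cells are recognised by F4/80 (Adgre1), CD11b (Itgam), lysosomal CD68 and lysozyme (Lyz2), whereas the fractalkine receptor CX3CR1, the efferocytosis receptor MERTK and the lipid receptor TREM2 mark particular states of these cells. In whole tumours, fewer cells of a type and less RNA per cell cannot be told apart.

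The mature sequences of the 3 mouse miRNAs (RefSeq, GRCm38.p6) are shown because their seeds, bases 2 to 8 in capitals, were searched for in the 3′ UTRs of the 9 genes. The miR-142-5p gene lies on chr11:87756867-87756887 (plus strand), that of miR-183-5p on chr6:30169711-30169732 (minus strand) and that of miR-222-3p on chrX:19146901-19146923 (minus strand), each given here for the mature sequence.
mmu-miR-142a-5p: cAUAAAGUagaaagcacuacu
mmu-miR-183-5p: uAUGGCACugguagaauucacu
mmu-miR-222-3p: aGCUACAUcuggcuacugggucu
The 3 seeds differ from each other. Matches to bases 2 to 8 (ACTTTAT for miR-142-5p, GTGCCAT for miR-183-5p and ATGTAGC for miR-222-3p) were sought on the transcribed strand, in 1 coding transcript per gene.

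Of the 9 genes, only Cx3cr1 held a match to any of the 3 seeds, and both of its matches were to miR-222-3p. Among all 21037 genes with a 3′ UTR, 9.45% held a match to the miR-222-3p seed, 14.3% to that of miR-142-5p and 8.81% to that of miR-183-5p. These shares are for the longest 3′ UTR of each gene. The members were searched in their leading coding transcript, so that the shares are not fully comparable. The 3′ UTR of the leading Cx3cr1 transcript has 2587 bases, and the matches are at bases 1302 to 1308 and 2292 to 2298. They are printed below with the flanking bases in lower case and the match in capitals, because they were the only matches found. Shorter matches, and matches outside these 3′ UTRs, were not searched for. The first lies at chr9:120049952-120049978 and in 3 of 3 annotated transcripts, and the second at chr9:120048962-120048988 and in 2 of 3 (GRCm38, minus strand).
Cx3cr1, first match: atcacgtaggATGTAGCcacaagaatg
Cx3cr1, second match: ggttctctctATGTAGCctcggctgtc
Such a match is a description of the letters and not evidence of pairing.

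The levels of the 9 genes were examined first, which cannot show from which cells the transcripts came. All 9 genes were measured in every tumour, with at least 100 estimated reads each, and all passed the filter on low counts. Levels are given as TPM, a share of all transcripts that takes account of their length, so that genes can be compared. Averaged over the 12 tumours, Lyz2 stood at 1593 ± 609 TPM (SD, n = 12), followed by Cd68 at 119 ± 23.1, Spi1 at 53.4 ± 7.42, Itgam at 45.6 ± 9.15 and Cx3cr1 at 37.1 ± 12.3 TPM. Adgre1 stood at 22.7 ± 6.53 TPM, Ly6c2 at 20.8 ± 6.74, Trem2 at 18.7 ± 5.07 and Mertk at 6.39 ± 1.56 TPM. Neighbours in this order were apart in all 12 tumours, without overlapping ranges, for Lyz2 and Cd68, for Cd68 and Spi1 and for Trem2 and Mertk. For the other neighbours the ranges overlapped: Ly6c2 exceeded Trem2 in 7 of 12 tumours, for example.

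**Figure D1:**
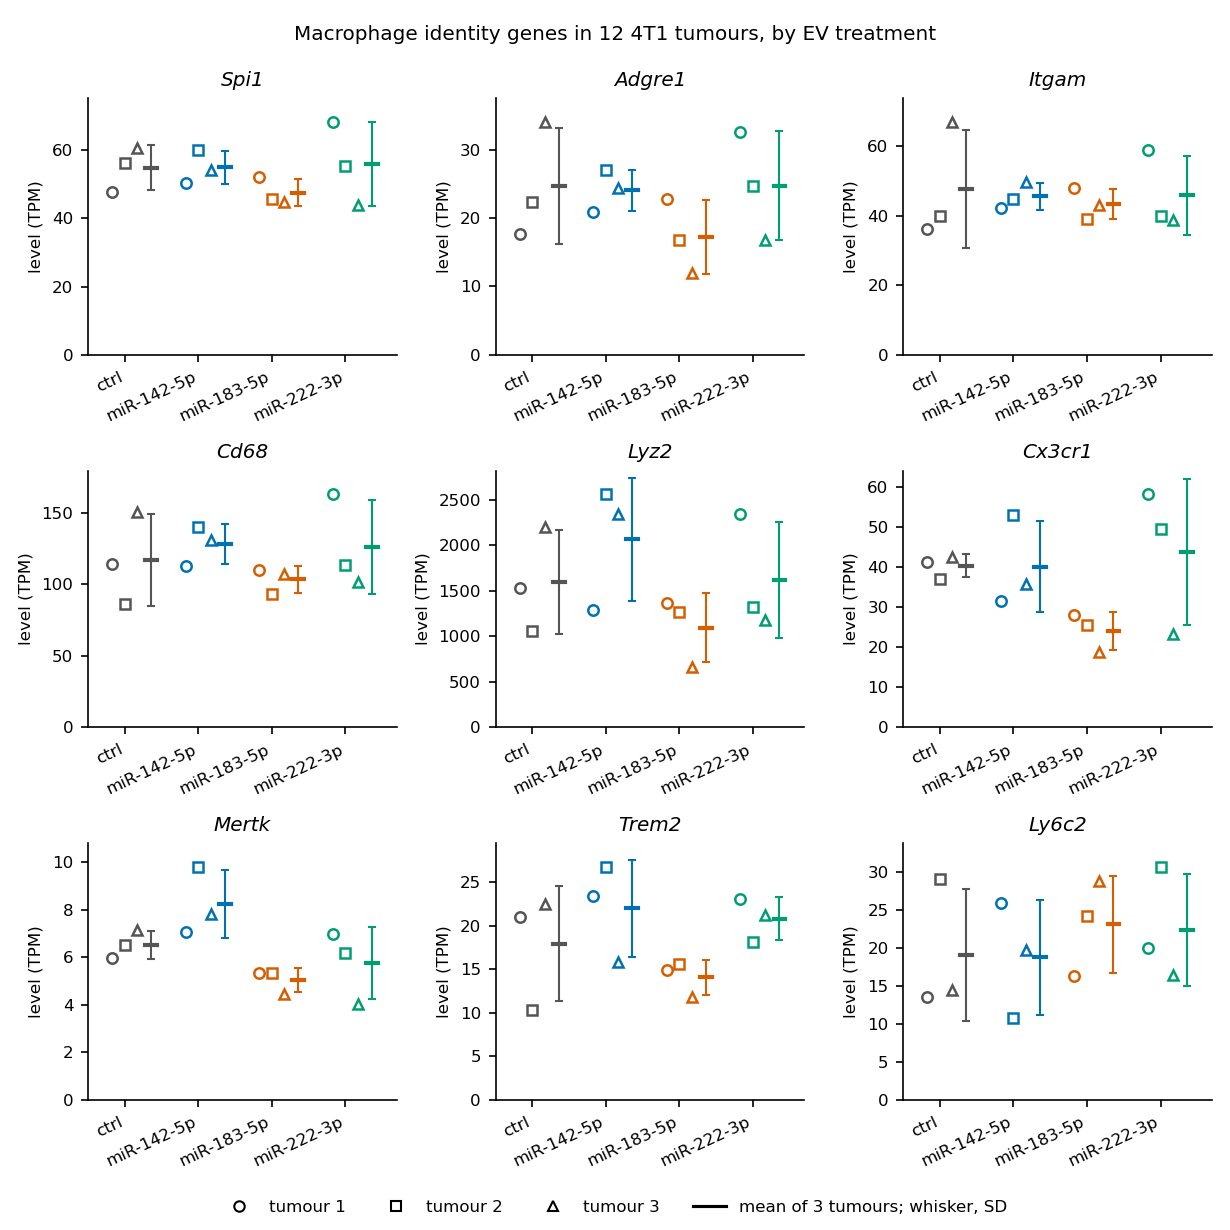
Level of each of the 9 macrophage identity genes (TPM, linear axes from 0) in every tumour, by EV treatment. Circles, squares and triangles are tumours 1, 2 and 3 of a group, which have no order, and the bar with whisker is the mean ± SD of 3 tumours. Cx3cr1 and Mertk are the only genes for which the 3 miR-183-5p tumours sit below the 3 ctrl tumours, and for no gene do the 3 miR-142-5p tumours all sit above them on this scale.

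The comparisons with ctrl ask whether EVs carrying one of the 3 miRNAs went with another level of these genes. They share the same 3 ctrl tumours and are therefore not independent. No member reached an adjusted p-value under 0.05 in any of them (DESeq2, Benjamini-Hochberg adjustment over 15413 genes). Few genes did at all: 0.00649% of the genes tested under miR-142-5p, 0% under miR-183-5p and 0.026% under miR-222-3p. At an unadjusted p under 0.05, DESeq2 marked 549, 496 and 353 genes in these comparisons and edgeR 518, 444 and 315, of which edgeR called 0 after adjustment in each. The DESeq2 p-values set each difference against the spread between tumours of the same group, estimated from all groups fitted together. A tumour outside a comparison can therefore alter its p-values.

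In miR-183-5p tumours, 8 of the 9 genes had a log2 fold change below 0, as had 52.7% of all genes tested, and only Ly6c2 lay above. The median log2 fold change of the 9 genes was -0.33, against -0.01 over all genes. The 9 genes were read in the same tumours and are correlated, as given below, so that they are not independent observations. The median of the 9 was 0.02 under miR-142-5p and 0.01 under miR-222-3p, against -0.01 over all genes in both. The values of the single genes follow, in the order of their roles.

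Spi1, on chromosome 2 (91082390 to 91115756), encodes PU.1 and varied least of the 9 genes, with the highest tumour at 1.56 times the lowest. It stood at 47.7, 56.4 and 60.8 TPM in ctrl tumours 1 to 3 and at 50.5, 60.2 and 54.2 TPM in the miR-142-5p tumours. With miR-183-5p it stood at 52.2, 45.8 and 44.8 TPM, and at 68.4, 55.4 and 43.9 TPM in the miR-222-3p tumours. All groups overlapped, and both the highest and the lowest tumour of the series belonged to the miR-222-3p group. Against ctrl, its log2 fold change was 0.02 ± 0.14 (SE, n = 3 per group) under miR-142-5p, -0.18 ± 0.14 under miR-183-5p and 0.01 ± 0.14 under miR-222-3p, the last with a 95% interval of -0.27 to 0.29. The intervals leave room for changes of a size that these tumours could not show.

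Adgre1, on chromosome 17 (57358691 to 57483527), encodes the adhesion receptor F4/80 that is commonly used to count mouse macrophages. Its levels were 17.6, 22.4 and 34.2 TPM in the ctrl tumours and 21.0, 27.005 and 24.4 TPM in the miR-142-5p tumours. With miR-183-5p they were 22.8, 16.8 and 12.0 TPM, and 32.7, 24.8 and 16.8 TPM in the miR-222-3p tumours. The groups overlapped, with miR-183-5p tumour 3 lowest and ctrl tumour 3 highest, and each of the 3 miR-183-5p tumours lay under the ctrl mean. In miR-183-5p tumours its log2 fold change was -0.48 ± 0.26 (SE), with a 95% interval of -1.002 to 0.03 and an adjusted p of 0.9998 by DESeq2. It was -0.23 without ctrl tumour 3 and -0.28 without miR-183-5p tumour 3. With the other miRNAs, miR-142-5p and miR-222-3p, it was -0.01 and 0.00, with intervals of about 0.5 on either side.

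Itgam, on chromosome 7 (128062640 to 128118491), encodes the integrin chain CD11b, which monocytes, macrophages and neutrophils share. It was measured at 36.03, 39.9 and 67.0 TPM in ctrl, at 42.1, 44.7 and 49.5 TPM in miR-142-5p, at 47.8, 39.1 and 43.2 TPM in miR-183-5p and at 58.9, 39.7 and 38.7 TPM in miR-222-3p tumours. Apart from ctrl tumour 3 and miR-222-3p tumour 1, the tumours lay close together and the groups overlapped. Its log2 fold changes were -0.04 under miR-142-5p, -0.10 under miR-183-5p and -0.06 under miR-222-3p, each with an SE of 0.19. Itgam is uncertain in 1 respect, since the overlapping gene model Gm49368 is identical to it over 3450 bases, 74.2% of its leading transcript, and could take some of its reads. Gm49368 was listed at 4.76 to 14.1 TPM.

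Cd68, on chromosome 11 (69664213 to 69666153), encodes a glycoprotein of lysosomes. It stood at 115, 86.4 and 150.4 TPM in ctrl and at 113, 140.1 and 131 TPM in miR-142-5p tumours. It stood at 109.9, 93.0 and 108 TPM in miR-183-5p and at 163, 113 and 101 TPM in miR-222-3p tumours. The spread within ctrl, where the highest tumour was well above the lowest, took in nearly all treated tumours. Its log2 fold change was 0.14 ± 0.20 (SE) under miR-142-5p, -0.15 ± 0.20 under miR-183-5p and 0.09 ± 0.20 under miR-222-3p.

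Lyz2, on chromosome 10 (117277331 to 117282321), encodes the lysozyme of macrophages, monocytes and neutrophils and was the most abundant of the 9 genes. It was measured at 1535, 1061 and 2196 TPM in ctrl and at 1289.8, 2560.4 and 2341 TPM in miR-142-5p tumours. It was measured at 1361, 1262 and 663 TPM in miR-183-5p and at 2347, 1326 and 1176 TPM in miR-222-3p tumours. miR-183-5p tumour 3 was the lowest and miR-142-5p tumour 2 the highest of the 12, and every group overlapped ctrl. Against ctrl, Lyz2 had a log2 fold change of 0.37 ± 0.32 (SE) under miR-142-5p, -0.52 ± 0.32 under miR-183-5p and 0.00 ± 0.32 under miR-222-3p. The value under miR-183-5p was -0.26 without miR-183-5p tumour 3 and -0.28 without ctrl tumour 3. The closest relative, Lyz1, matches Lyz2 at 95.8% of 1264 bases, and was listed at 0.229 to 0.827 TPM in 11 tumours and at 34.8 TPM in miR-142-5p tumour 3.

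Cx3cr1, on chromosome 9 (119901616 to 120069879), encodes the receptor for fractalkine, which patrolling monocytes and many tissue macrophages carry. Its levels were 41.3, 37.1 and 42.5 TPM in the ctrl tumours and 31.6, 53.0 and 35.7 TPM in the miR-142-5p tumours. In the miR-183-5p tumours they were 28.1, 25.5 and 18.8 TPM, and in the miR-222-3p tumours 58.3, 49.6 and 23.4 TPM. The 3 miR-183-5p tumours lay below all ctrl and all miR-142-5p tumours, while the miR-222-3p group held the highest tumour of the series as well as one of the lowest. The mean was 24.1 ± 4.80 TPM (SD, n = 3) with miR-183-5p and 40.3 ± 2.87 TPM with ctrl, 0.607 times the ctrl level in the fit. On the log2 scale the change was -0.72 ± 0.28 (SE), with a 95% interval of -1.26 to -0.18, an unadjusted p of 0.00913 and an adjusted p of 0.9998 by DESeq2.

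Cx3cr1 was the only member with an unadjusted p under 0.05 in this comparison, which 3.22% of all genes tested had, and 1.6% had with a lower level. Leaving out 1 tumour at a time kept its log2 fold change between -0.83 and -0.57, the latter without miR-183-5p tumour 3, and did not bring it past the threshold. When only the ctrl and miR-183-5p tumours were fitted, it was still -0.72 but had an adjusted p of 0.0316, in a fit that called 37 of 14832 genes. In the 3′ UTR of its leading coding transcript no match to bases 2 to 8 of miR-183-5p was found, and shorter matches were not searched for. Whether any of the miRNAs acts on Cx3cr1 was not tested. Under miR-222-3p, whose seed has the printed matches, the log2 fold change was 0.09 ± 0.28 (SE), with a 95% interval of -0.45 to 0.63, and under miR-142-5p it was 0.00 ± 0.28.

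Mertk, on chromosome 2 (128698956 to 128802894), encodes a receptor tyrosine kinase through which macrophages take up dying cells, and was the lowest of the 9. It stood at 5.95, 6.49 and 7.13 TPM in ctrl and at 7.05, 9.81 and 7.83 TPM in miR-142-5p tumours. It stood at 5.35, 5.34 and 4.45 TPM in miR-183-5p and at 6.99, 6.18 and 4.05 TPM in miR-222-3p tumours. The miR-183-5p tumours lay under all ctrl tumours in TPM, while the lowest miR-142-5p tumour lay just under the highest ctrl tumour. On the normalised counts of the fit, the miR-142-5p tumours lay above ctrl and the miR-183-5p tumours below it, both without overlap. Mertk had a log2 fold change of 0.35 ± 0.19 (SE) under miR-142-5p, -0.34 ± 0.20 under miR-183-5p and -0.20 ± 0.20 under miR-222-3p, and the 95% intervals of all 3 held 0.

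Trem2, on chromosome 17 (48346401 to 48354147), encodes a lipid-sensing receptor of macrophages that signals through the adaptor TYROBP. It was measured at 21.0, 10.3 and 22.5 TPM in ctrl and at 23.4, 26.8 and 15.8 TPM in miR-142-5p tumours. It was measured at 14.9, 15.6 and 11.8 TPM in miR-183-5p and at 23.05, 18.1 and 21.2 TPM in miR-222-3p tumours. The low ctrl tumour 2 lay under all 3 miR-183-5p tumours, so that these groups overlapped, whereas the miR-183-5p and miR-222-3p tumours did not overlap. Relative to ctrl, Trem2 was at a log2 fold change of 0.31 ± 0.30 (SE) under miR-142-5p, -0.33 ± 0.30 under miR-183-5p and 0.20 ± 0.30 under miR-222-3p.

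Ly6c2, on chromosome 15 (75108158 to 75111970), encodes a form of Ly6C, the surface protein of inflammatory monocytes. It stood at 13.5, 29.1 and 14.5 TPM in ctrl and at 25.8, 10.8 and 19.7 TPM in miR-142-5p tumours. It stood at 16.3, 24.1 and 28.7 TPM in miR-183-5p and at 19.9, 30.6 and 16.4 TPM in miR-222-3p tumours. Each group held high and low tumours. Its log2 fold change was 0.01 ± 0.39 (SE) under miR-142-5p, 0.31 ± 0.39 under miR-183-5p and 0.23 ± 0.39 under miR-222-3p, the widest errors of the 9 genes. The reads of Ly6c2 are hard to assign, because Ly6c1, at 57.1 to 168 TPM, matches its leading transcript at 97.9% of 516 bases. With the reads of both genes summed, the log2 fold changes were -0.13, 0.04 and 0.05.

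Among the 9 genes, those without overlap with ctrl were Mertk for miR-142-5p (1 of 9, higher, against 6.07% of all genes in either direction and 3.13% higher), and Cx3cr1 and Mertk for miR-183-5p (2 of 9, both lower, against 9.17% of all genes in either direction and 4.74% lower). For miR-222-3p there was 0 of 9, against 5.51% of all genes. At an unadjusted p under 0.05 there were 0 members for miR-142-5p, against 3.56% of all genes, and 0 for miR-222-3p, against 2.29%.

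**Figure D2:**
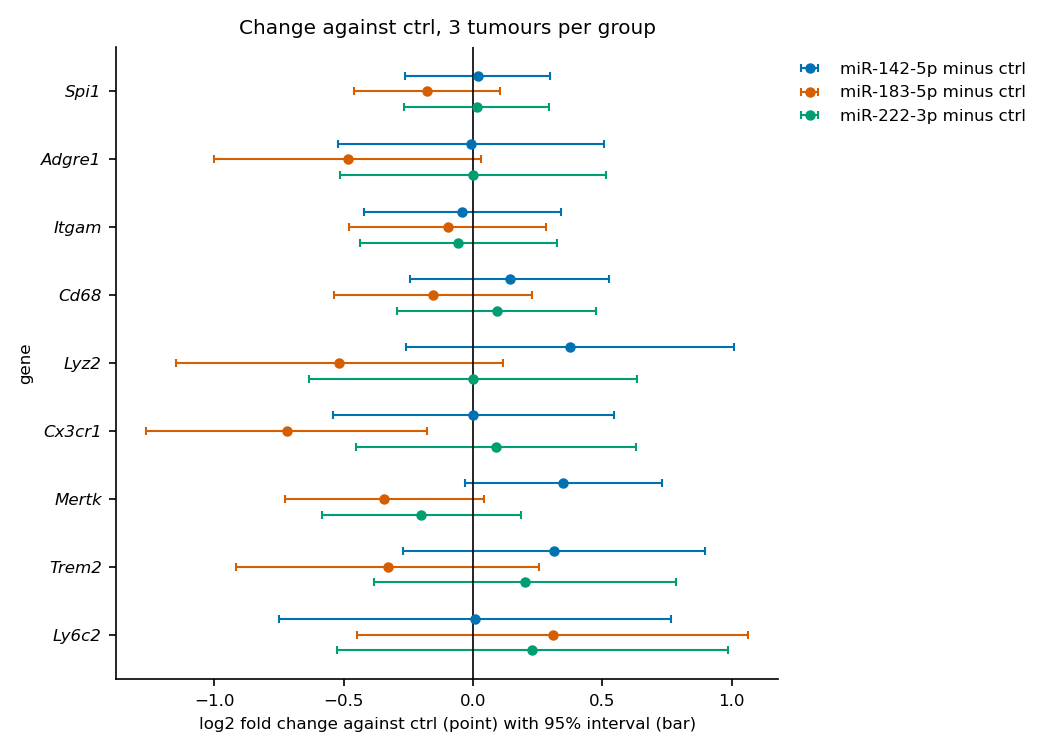
Log2 fold change of each gene against ctrl in each of the 3 miRNA groups (points, DESeq2, 3 tumours per group) with 95% intervals (bars). The Cx3cr1 interval for miR-183-5p, -1.26 to -0.18, is the only one of the 27 that does not reach 0.

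The miRNA groups were next compared with each other. Against miR-142-5p, 8 of the 9 genes were below 0 in miR-183-5p tumours, as were 50.5% of all genes, and the median log2 fold change was -0.48 against 0.00 over all genes. No member passed the adjusted threshold, which 0.0519% of genes did in DESeq2 and 0 genes in edgeR, where 1128 had an unadjusted p under 0.05. At an unadjusted p under 0.05 there were 4 members, all lower, against 7.95% of all genes and 4.85% counting the lower ones. The groups did not overlap for 4 members, all lower, against 12.3% and 6.43% of all genes.

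The 4 genes with an unadjusted p under 0.05 were Mertk, Lyz2, Cx3cr1 and Trem2. The log2 fold change of Mertk between miR-183-5p and miR-142-5p tumours was -0.69 ± 0.20 (SE), with a 95% interval of -1.08 to -0.31 and an adjusted p of 0.112 by DESeq2. That of Lyz2 was -0.89 ± 0.32, with an interval of -1.52 to -0.26 and an adjusted p of 0.315 by DESeq2. That of Cx3cr1 was -0.72 ± 0.28 (adjusted p of 0.378 by DESeq2) and that of Trem2 -0.64 ± 0.30 (adjusted p of 0.550). Mertk, Lyz2, Cx3cr1 and Cd68 were those whose tumours did not overlap on normalised counts, Cd68 with -0.30 ± 0.20. Spi1, Itgam and Adgre1 were at -0.20, -0.06 and -0.48, and Ly6c2 at 0.30.

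Single tumours decided whether 2 of these genes passed. Without miR-142-5p tumour 1, Mertk reached -0.75 with an adjusted p of 0.0324 and Lyz2 -1.11 with an adjusted p of 0.0385 by DESeq2, while 415 genes were called in place of 8. Without miR-142-5p tumour 2, the highest of its group for both, Lyz2 was at -0.69 and Cx3cr1 at -0.46. Without miR-222-3p tumour 3, which is in neither group, Mertk stayed at -0.69 with an adjusted p of 0.0285, and 29 genes were called in place of 8. Over 24 settings the adjusted p of Mertk ranged from 0.0285 to 0.848, and that of Lyz2 from 0.0385 to 0.99997.

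Between miR-183-5p and miR-222-3p tumours, Cx3cr1 was the only member with an unadjusted p under 0.05 (3.24% of all genes, 1.65% lower), and Trem2 the only one without overlap (9.04%, 4.45% lower). Cx3cr1 was at -0.81 ± 0.28 (SE), with an adjusted p of 0.901 by DESeq2, and Trem2 at -0.53 ± 0.30. Without miR-222-3p tumour 3, the one low tumour of its group, Cx3cr1 was at -1.09 with an adjusted p of 0.00778, and 15 genes were called in place of 5. Between miR-142-5p and miR-222-3p tumours, Mertk was the only member with an unadjusted p under 0.05 (3.59% of all genes, 2.17% higher) and the only one without overlap (6.2%, 2.9% higher), at 0.55 ± 0.19 with an adjusted p of 0.912. No member passed the adjusted threshold in either comparison, where 0.0324% and 0.0389% of genes did.

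A single test of any difference among the 4 groups (DESeq2 likelihood ratio test) gave unadjusted p-values of 0.00222 for Mertk and 0.0164 for Cx3cr1, with adjusted p-values of 0.290 and 0.739. These were 2 of 9 members at an unadjusted p under 0.05, against 4.74% of all genes, and 0 of 9 after adjustment, against 0.0584%. Without miR-222-3p tumour 3, Cx3cr1 had an adjusted p of 0.0299 in this test, and 16 genes were called in place of 9.

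Markers of other cells are given beside these values. The summed level of 9 neutrophil markers was 1896 to 3069 TPM in miR-183-5p tumours, 1065 to 2051 in ctrl and 1039 to 1677 in miR-142-5p tumours. The sum rested mainly on S100a9 and S100a8, at means of 1025 and 519 TPM over the 12 tumours, with Retnlg next at 67.7 TPM. Between miR-183-5p and ctrl the median log2 fold change of the 9 markers was 0.19, with 2 below 0. At an unadjusted p under 0.05 by DESeq2, 2 were higher and 1 lower, against 3.22% of all genes. The summed level of 4 fibroblast markers, mainly Col1a2 and Col1a1, was 562.8 to 749 TPM with miR-183-5p, 261 to 559.2 with ctrl and 172 to 523 with miR-142-5p. In fibroblast markers the miR-183-5p tumours overlapped neither of these groups, though the lowest lay only just above the highest ctrl tumour. With miR-222-3p this sum was 238 to 904 TPM, a range that took in all miR-183-5p tumours. In neutrophil markers the miR-183-5p tumours overlapped ctrl. Markers of carcinoma cells overlapped, at 1435 to 1611 TPM with miR-183-5p and 1406 to 1848 TPM with ctrl. Between miR-183-5p and miR-142-5p tumours, neutrophil markers lay on the other side from Mertk, Lyz2 and Cx3cr1. Their median log2 fold change was 0.62 over 9 markers, with 1 below 0 and 4 higher at an unadjusted p under 0.05. Medians of T-cell, dendritic cell, NK-cell and mast cell markers lay on the same side as the 3 genes. The median log2 fold change was -1.14 over 5 T-cell markers (5 of 5 below 0, 3 with an unadjusted p under 0.05), -0.74 over 4 dendritic cell markers (4 of 4 below 0, 1 with such a p) and -0.62 over 3 NK-cell markers (3 of 3 below 0). It was -0.85 over 3 mast cell markers, of which 2 were below 0. Of all genes, 7.95% had an unadjusted p under 0.05 in this comparison, and 4.85% counting the lower ones. The 5 T-cell and 4 dendritic cell markers were each highest in miR-142-5p tumour 3, which also held B-cell markers. The summed levels of the T-cell, dendritic cell, NK-cell and mast cell lists overlapped between both groups. For T cells they were 20.6 to 46.7 TPM with miR-183-5p and 35.01 to 137 TPM with miR-142-5p. The part of these cells in the lower Cx3cr1, Mertk and Lyz2 values was not tested.

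Some libraries also stood apart. miR-142-5p tumour 3 held 3 B-cell markers at a sum of 275 TPM, against at most 1.91 TPM elsewhere, and miR-183-5p tumour 3 held 3 skeletal muscle markers at 169 TPM, against at most 1.57 TPM elsewhere. Without the former, the miR-183-5p to miR-142-5p difference of Mertk was -0.77 and that of Lyz2 -0.84, and without the latter they were -0.61 and -0.63. In 8 libraries the pseudogene Gm28661 took 7.13% to 41.8% of the reads assigned to it or to the mitochondrial gene mt-Co2, and in the other 4, which were the 3 miR-222-3p libraries and miR-183-5p tumour 3, at most 0.324%. Within the 8, the Cx3cr1 log2 fold change of miR-183-5p against ctrl was -0.57 and that of Mertk -0.26, while the miR-222-3p group cannot be told apart from this split.

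miR-222-3p tumour 1 and miR-142-5p tumour 2 were each the highest tumour for 3 of the 9 genes and among the 3 highest for 7. ctrl tumour 3 was among the 3 highest for 5. miR-183-5p tumours 2 and 3 were each among the 3 lowest for 6 genes, with tumour 3 the lowest for 3. miR-222-3p tumour 3 was among the 3 lowest for 7. High and low tumours thus stood side by side within the miR-222-3p group.

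All 28 pairs of members without Ly6c2 were positively correlated across the 12 tumours, with Pearson's r from 0.23 to 0.89, and all 8 pairs with Ly6c2 were negatively correlated, from -0.73 to -0.34. Of the 36 pairs, 13 passed an adjusted permutation p of 0.05 (log2 of the normalised count plus 1), 12 of them positive. Lyz2 took part in 6 of the 13, Spi1 and Cx3cr1 in 4 each, and Itgam, Trem2 and Ly6c2 in 1 each. These pairs share the libraries and their scaling, and they span the groups. The share of correlated pairs among other genes was not computed. Whether 13 of 36, or the shared sign, is particular to these genes is therefore not known.

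The closest pair was Spi1 and Cx3cr1, the lineage factor and the fractalkine receptor, with r = 0.894 (permutation p = 0.00014, adjusted 0.00306) and Spearman's rho = 0.902 (permutation p = 0.00015, adjusted 0.0027). Without the 2 tumours farthest from the Cx3cr1 median r was 0.835, within the 8 libraries above 0.789, and between deviations from the group means 0.854. Spi1 and Adgre1 had r = 0.885 (permutation p = 0.00017, adjusted 0.00306) and rho = 0.874 (permutation p = 0.00051, adjusted 0.00612), with r = 0.938 without the 2 farthest tumours and 0.808 within the 8 libraries. Both relations held with any 1 tumour left out, at r of at least 0.867 and 0.872.

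For Cx3cr1 and Mertk the relation was closest within the groups. Across all tumours r was 0.746 (permutation p = 0.00489, adjusted 0.0254) and rho 0.643 (permutation p = 0.0277, adjusted 0.067), and r was 0.735 without the 2 farthest tumours and 0.779 within the 8 libraries. Between deviations from the group means r was 0.974 (permutation p = 1e-05, the smallest that 100000 permutations can give, adjusted 0.00036), the highest of the 36 pairs, though deviations within a group sum to 0 and are not fully independent.

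Lyz2 and Ly6c2 were the only pair past the threshold with a negative correlation, with r = -0.726 (permutation p = 0.00706, adjusted 0.0254) and rho = -0.636 (permutation p = 0.0291, adjusted 0.067), the latter not past it. Without the 2 tumours farthest from the Lyz2 median r was -0.573, and within the 8 libraries -0.810. Tumours with much Lyz2 tended to hold little Ly6c2, whose reads are hard to tell from those of Ly6c1. Without miR-142-5p tumour 2 the adjusted p of this pair was 0.0952.

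The number of correlated pairs depended on single tumours and on the scale. It was 4 without miR-142-5p tumour 2 and 4 without miR-183-5p tumour 3, and up to 15 without one of the others. It was 8 by Spearman's rho, 20 on log2(TPM + 1), and 0 after adjustment within the 8 libraries, where 10 pairs had an unadjusted exact p under 0.05.

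**Figure D3:**
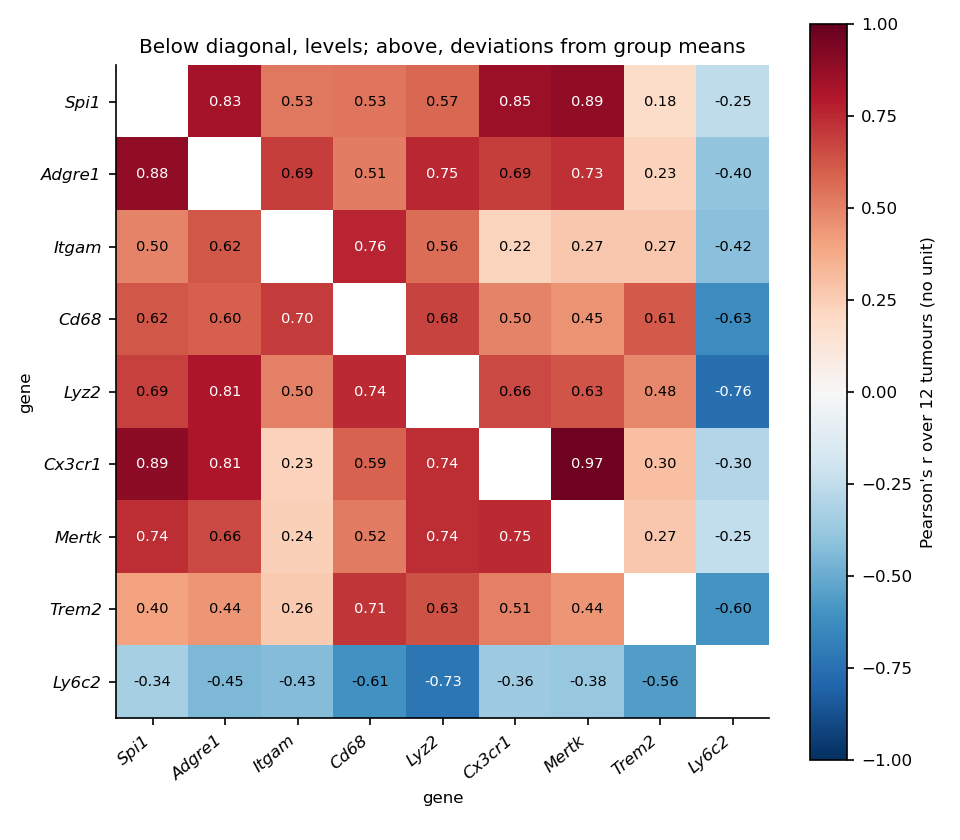
Pearson's r between the 9 genes over 12 tumours, computed on log2 normalised counts below the diagonal and on deviations from the group means above it (colour scale from -1 to 1, no unit). The row of Ly6c2 is negative throughout, while Cx3cr1 and Mertk have the highest r above the diagonal, 0.97.

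By the rule of highest correlation among 11325 protein-coding genes with a mean normalised count of at least 100, the genes most like Cx3cr1 over the 12 tumours were Lair1 (r = 0.960), Il10ra (0.955) and Tifab (0.953). Those most like Lyz2 were Selenop (0.974), Slc43a2 (0.968) and Mmp28 (0.952), and those most like Spi1 were Zbtb6 (0.945), Myo1f (0.914) and Mpeg1 (0.906). Cd68 was followed by Galnt15 (0.950), Osr2 (0.930) and Ctsa (0.922), Adgre1 by Kctd18 (0.933), Zfp991 (0.922) and Fyb (0.905), and Itgam by Eya1 (0.958), Tmem106b (0.953) and Pdlim5 (0.950). Mertk was followed by Nudt16 (0.929), Tnfaip8l2 (0.898) and Prmt9 (0.893), Trem2 by Ctla2a (0.960), Doc2g (0.943) and Cst3 (0.929), and Ly6c2 by Haus8 (0.918), Endod1 (0.904) and Spats2l (0.885). As the highest values of many these are descriptions without a test.

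Ratios of levels within a tumour do not depend on the scaling of the libraries. The ratio of Ly6c2 to Adgre1, a monocyte transcript against a macrophage transcript, was 0.768, 1.30 and 0.424 in ctrl, 1.23, 0.399 and 0.807 in miR-142-5p, 0.713, 1.43 and 2.39 in miR-183-5p and 0.610, 1.24 and 0.973 in miR-222-3p tumours. The highest ratios were those of miR-183-5p tumours 2 and 3, but tumour 1 of that group was within the ctrl range. The mean log2 ratio was 0.84 higher with miR-183-5p than with ctrl (two-sided exact permutation p = 0.3, adjusted 0.9), where 0.1 is the smallest p that 3 against 3 tumours allow. It was 0.43 without miR-183-5p tumour 3 or without ctrl tumour 3, 1.30 without miR-183-5p tumour 1, and 0.55 with Ly6c1 and Ly6c2 summed.

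The ratio of Adgre1 to Ptprc, the gene of the pan-leukocyte protein CD45, was 0.534, 0.585 and 0.573 in ctrl and 0.525, 0.558 and 0.574 in miR-222-3p tumours. It was 0.580, 0.605 and 0.239 in miR-142-5p and 0.547, 0.480 and 0.351 in miR-183-5p tumours. The ctrl and miR-222-3p tumours lay close together, although their Adgre1 levels differed widely, and the low value of the miR-142-5p group was that of tumour 3, the tumour with B-cell markers. The log2 difference between miR-183-5p and ctrl was -0.32 (two-sided exact permutation p = 0.2, adjusted 0.9), with 0 of 3 tumours above the ctrl mean, and -0.14 without miR-183-5p tumour 3.

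The ratio of Trem2 to Adgre1 lay between 0.461 and 1.26 in all tumours. Its log2 differences from ctrl were 0.33 under miR-142-5p, 0.24 under miR-183-5p and 0.28 under miR-222-3p (exact permutation p = 0.7, 0.7 and 0.5). After adjustment, all 9 exact permutation tests of ratios had p = 0.9.

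**Figure D4:**
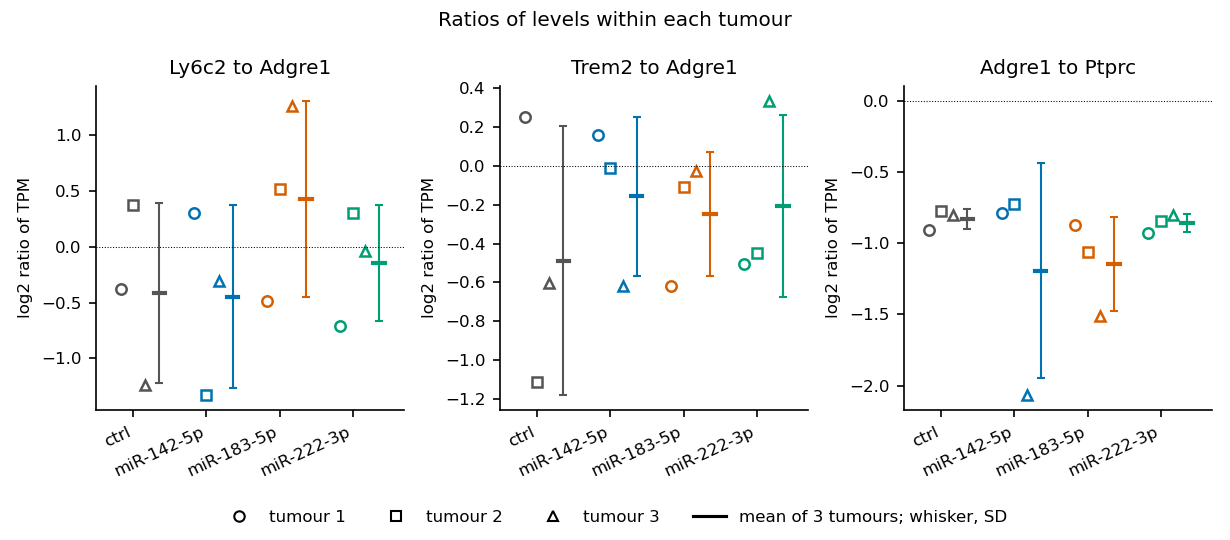
Log2 ratio of TPM within each tumour for Ly6c2 to Adgre1, Trem2 to Adgre1 and Adgre1 to Ptprc, by EV treatment, with the mean ± SD of 3 tumours. The Adgre1 to Ptprc ratio is nearly the same in all ctrl and miR-222-3p tumours, whereas the Ly6c2 to Adgre1 ratio spreads widely within every group.

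Most members were read mainly from 1 transcript. Lyz2 has a single annotated transcript, and the leading transcript held 87.4% to 96.5% of the Cd68 level and 73.9% to 93.9% of the Adgre1 level across tumours. For Cx3cr1, the leading transcript held between 54.1% and 99.8%, the widest range, and another coding transcript took most of the rest. Spi1 was spread over 4 transcripts, with the leading one at 30.5% to 47.9%. For Mertk, the transcript with the largest share, at 45.4% to 65.2%, was one annotated as a processed transcript without a coding sequence, and the coding transcript held 34.8% to 54.6%, so that the gene level of Mertk is not that of its coding RNA alone.

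**Figure D5:**
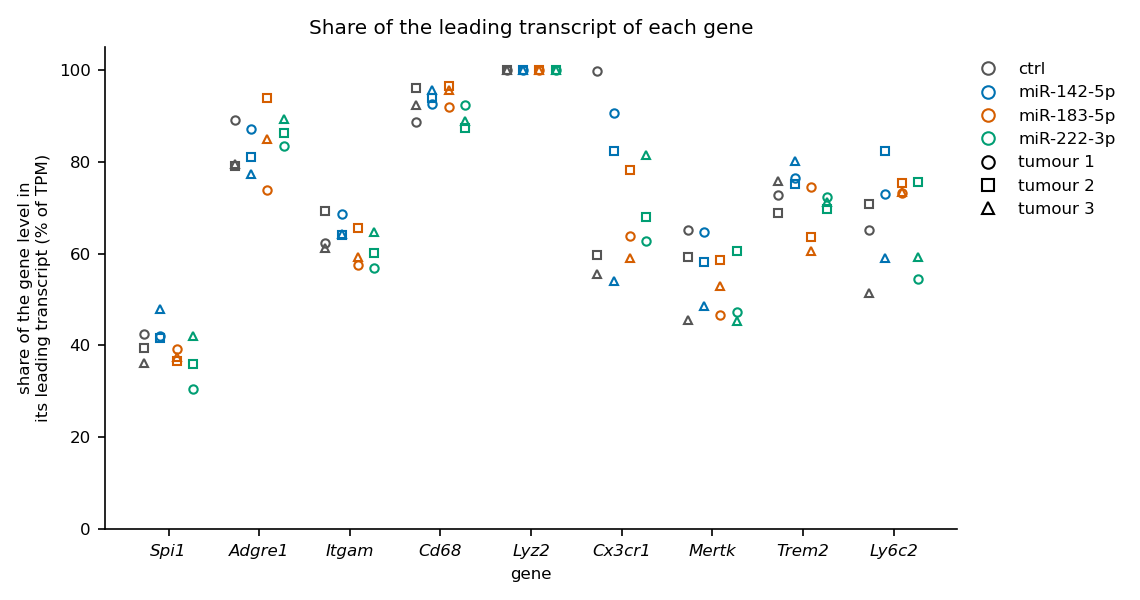
Share of each gene's level (percent of its TPM) held by its leading transcript, with 1 symbol per tumour and colours for the EV treatment. Cx3cr1 ranges from 54.1% to 99.8%, with high and low tumours in the same groups, while Lyz2 is at 100% in every tumour.

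The promoters of the members were searched for GAGGAAGT, a core sequence bound by PU.1, on both strands, from 250 bases before to 50 after the start (RefSeq, GRCm38.p6). Promoters were at hand for 7 of the 9 members, all but Spi1 and Adgre1, with 8 promoters between them. The letters were found in 2 of the 8, against 3.20% of 32851 promoters. Both belong to 1 gene, Ly6c2, and hold the same 2 matches. The windows are shown because Spi1, which encodes PU.1, is itself one of the 9 genes, with the match in capitals on the strand of the gene. The first is at chr15:75112061-75112090 and the second at chr15:75111927-75111956 (minus strand).
Ly6c2, upstream match: atgttggccctGAGGAAGTaagaaccaaaa
Ly6c2, match near the start: acctggtcagaGAGGAAGTaaggactggtg
The absence of these letters from the other windows says nothing about binding of the factor.

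The genes around the members in their pathways were examined as 7 lists of 72 genes, of which 71 were tested. None passed the adjusted threshold in any of the 6 comparisons (DESeq2). At an unadjusted p under 0.05, there were 3 genes for miR-142-5p against ctrl (3 higher), 8 for miR-183-5p (1 higher and 7 lower) and 2 for miR-222-3p (1 higher and 1 lower). Over all genes tested the shares were 3.56%, 3.22% and 2.29%, so that the counts with miR-142-5p and miR-222-3p were near the background. Between miR-183-5p and miR-142-5p there were 21 (2 higher and 19 lower), in the comparison with the highest background, 7.95% of all genes and 4.85% lower. The median log2 fold change over the 71 genes was 0.03, -0.17 and -0.03 against ctrl, and -0.20 between miR-183-5p and miR-142-5p.

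Among lineage factors and the growth factor receptor, 3 of 11 genes were lower in miR-183-5p tumours at an unadjusted p under 0.05, against 1.6% of all genes, and 0 passed after adjustment. They included Csf1r, the receptor for CSF1 on which macrophages depend for survival, with a level of 53.8 to 129.7 TPM over the 12 tumours and a log2 fold change of -0.44 ± 0.22 (SE, adjusted p of 0.9998 by DESeq2). Against miR-142-5p it was at -0.69 ± 0.22, with an adjusted p of 0.165. Irf8, which directs monocyte and dendritic cell development, was at -0.32 ± 0.16 and Batf3, a factor of cross-presenting dendritic cells, at -0.52 ± 0.26 against ctrl.

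Of 16 general macrophage markers, 2 were lower in miR-183-5p than in ctrl tumours at an unadjusted p under 0.05, against 1.6% of all genes, and 6 were lower than in miR-142-5p tumours, against 4.85%. Siglec1, which encodes CD169, was at -0.66 ± 0.26 (SE) against ctrl, and Laptm5, a lysosomal protein of blood cells, at -0.55 ± 0.15 against miR-142-5p with an adjusted p of 0.0977 by DESeq2. Lgals3, which encodes galectin-3 and is also expressed by carcinoma cells, was at 0.05 ± 0.21 against ctrl. C1qa, a complement chain made by macrophages, was at -0.39 ± 0.23.

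Among 11 genes of TREM2 signalling and lipid handling, Tyrobp, the adaptor of TREM2, was at -0.30 ± 0.15 (SE) in miR-183-5p tumours against ctrl, and Syk, the kinase below it, at 0.53 ± 0.26 in miR-142-5p tumours, with adjusted p-values of 0.9998 and 1 by DESeq2. Apoe ranged from 636 to 4033 TPM over the tumours and was at -1.08 ± 0.43 between miR-183-5p and miR-142-5p. Spp1, at 6631 to 9174 TPM the most abundant gene of the lists, was at 0.08 ± 0.18 with miR-183-5p against ctrl. Syk and Laptm5 were both highest in miR-142-5p tumour 3, the tumour with B-cell markers.

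Around MERTK, the ligand Pros1 was at 0.44 ± 0.21 (SE) in miR-183-5p and at 0.52 ± 0.21 in miR-222-3p tumours against ctrl, with adjusted p-values of 0.9998 and 0.99996 by DESeq2. The related receptor Axl was at -0.09 ± 0.15 with miR-183-5p. Around CX3CR1, the ligand Cx3cl1 was at -0.35 ± 0.12 in miR-222-3p tumours (unadjusted p of 0.0027, adjusted p of 0.99996 by DESeq2) and at -0.09 ± 0.12 in miR-183-5p tumours. Its sheddases Adam10 and Adam17 were at 0.14 ± 0.12 and 0.15 ± 0.10 there.

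Among integrins, Itgb2, the chain that pairs with CD11b, was at 0.06 ± 0.12 (SE) in miR-183-5p tumours. Among 10 monocyte genes, 0 had an unadjusted p under 0.05 in any comparison, against 2.29% to 7.95% of all genes. For a list of 10 genes this is near the background. Ccr2, the receptor with which monocytes follow CCL2, was at -0.01 ± 0.17 with miR-183-5p and at 0.23 ± 0.17 with miR-142-5p. Ccl2 itself was at -0.46 ± 0.24 with miR-142-5p.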

How the data were processed

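RNA-Seq was performed on 12 whole 4T1 tumours, 3 per group, with 1 stranded mRNA library each. The authors quantified reads with Salmon, and the deposited tables hold an estimated (expected) count of reads and a TPM per transcript, with lengths. The Ensembl release named in the methods differs from that of the tables, and the build is GRCm38. Transcripts were matched without version to GENCODE M21, 116710 of 118783 (98.3%). Unmatched transcripts held 0.633% to 0.671% of the reads of a library. TPM deposited by the authors' program were summed per gene. Estimated counts, also from the deposited tables, were summed and rounded. Libraries held 20285968 to 27021401 estimated reads. Each of the 12 within-group pairs of libraries differed by more than sampling noise.

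The 15459 genes that reached 10 reads in 3 or more libraries were fitted with DESeq2 1.42.0 (Wald test, length offset as tximport passes it, 12 libraries in 1 fit, group as the only factor). Adjusted p-values are Benjamini-Hochberg values over 15413 genes, those with an adjusted p, with a threshold of 0.05. Tests were checked on simulated data. Alternatives were edgeR 4.0.16 (quasi-likelihood, TMM), TMM factors, no filter, at least 50 reads in every library, fits without length offset, of the compared groups alone or with replicate number as block, limma 3.58.1 on log2(TPM + 1), the 8 libraries with over 1% Gm28661 reads, a threshold of 0.1, summed reads of close relatives (found with BLAST 2.17.0; the Itgam and Gm49368 sum was added after seeing the data) and each tumour left out. Ratios were compared by exact permutation tests and correlations by 100000 permutations.

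The 9 genes, the 7 lists and the tests were chosen with earlier results of these data known. Of each list, the text could name the 2 genes with the highest mean TPM and the gene with the smallest p in each comparison with ctrl, and the 3 genes most correlated with each member. Sequences of miRNAs and promoters are from RefSeq, and 3′ UTRs from the GENCODE annotation. Python 3.11.15 and R 4.3.3 were used.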

Additional observations from a re-analysis of the deposited data

How the results depend on the processing

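No member was called in the main comparisons, and this held under all alternatives but 2 kinds. Fitting only ctrl and miR-183-5p tumours called 1 member (Cx3cr1) among 37 of 14832 genes, against 0 genes in the fit of all tumours. Leaving out 1 tumour gave 0 to 2 called members between miR-183-5p and miR-142-5p, 0 to 1 between miR-183-5p and miR-222-3p and 0 to 1 in the test of any difference among the groups. The number of correlated pairs, 13, became 8 by Spearman's rho, 20 on log2(TPM + 1), 0 within the 8 libraries, and 4 to 15 with 1 tumour left out. A fit within the 8 libraries was not run for comparisons with miR-222-3p, which has no library among them. Fewer samples enter when libraries are left out, and the number of correlated pairs then both fell and rose. The cause of these changes was not tested.

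Under the alternatives other than leaving out 1 tumour, 14 of 407 log2 fold changes turned direction, none of them above 0.057 in size as reported. With limma on log2(TPM + 1), values against ctrl turned for miR-142-5p in Adgre1 (0.0082), Cx3cr1 (-0.039) and Ly6c2 (-0.019), and for miR-222-3p in Adgre1 (0.0048) and Lyz2 (0.011). For miR-222-3p, Adgre1 turned with edgeR (0.00041), TMM factors (0.00058), at least 50 reads (0.0058) and no length offset (0.052), Lyz2 with at least 50 reads (0.0061) and Spi1 with no length offset (-0.067). Summed reads turned Ly6c2 for miR-142-5p (-0.13) and Itgam between miR-183-5p and miR-142-5p (0.011).

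Replicate numbers did not pair the tumours: deviations from the group means correlated at a mean of -0.07 (-0.58 to 0.36) over 18 same-numbered pairs and 0.03 over 36 others. With the replicate number as a block no member was called, Cx3cr1 for miR-183-5p against ctrl was -0.76, and Cx3cr1 for miR-142-5p turned to -0.029.

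With 1 tumour left out, 34 of 456 log2 fold changes turned. For miR-142-5p against ctrl, the ranges were -0.15 to 0.24 for Adgre1, -0.047 to 0.30 for Cd68, -0.26 to 0.12 for Cx3cr1, -0.16 to 0.23 for Itgam, -0.36 to 0.42 for Ly6c2 and -0.057 to 0.077 for Spi1. For miR-183-5p they were -0.34 to 0.0083 for Cd68 and -0.22 to 0.17 for Itgam, and without turning -0.72 to -0.23 for Adgre1, -0.75 to -0.26 for Lyz2, -0.62 to -0.12 for Trem2 and 0.12 to 0.72 for Ly6c2. For miR-222-3p they were -0.20 to 0.25 for Adgre1, -0.10 to 0.26 for Cd68, -0.12 to 0.37 for Cx3cr1, -0.23 to 0.21 for Itgam, -0.074 to 0.64 for Ly6c2, -0.31 to 0.23 for Lyz2, -0.11 to 0.13 for Spi1 and -0.088 to 0.41 for Trem2. Log2 ratios ranged from -0.44 to 0.41 (miR-142-5p), 0.43 to 1.30 (miR-183-5p) and -0.15 to 0.66 (miR-222-3p) for Ly6c2 to Adgre1, from -0.076 to 0.61 (miR-183-5p) and -0.033 to 0.65 (miR-222-3p) for Trem2 to Adgre1, and from -0.60 to 0.073 (miR-142-5p), -0.46 to -0.14 (miR-183-5p) and -0.069 to 0.0055 (miR-222-3p) for Adgre1 to Ptprc. With 3 tumours per group, differences of the size of the printed intervals could not be shown.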
